A study of Mus musculus with 26 samples.

Results

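Invariant natural killer T (NKT) cells of the mouse thymus were compared between the last 2 stages of their development, stage 2 and stage 3. The comparison took every library labelled NKT-2 (7 libraries) and every library labelled NKT-3 (6 libraries), 13 of the 26 libraries of a series that also holds stage 1 NKT cells and early thymic precursors. All 13 came from C57BL/6 mice that were 6 to 8 weeks old, and no allele, drug or culture step is given for any of them. Both groups were sorted as T cells carrying the TCR β chain and binding a CD1d dimer loaded with αGalCer, the glycolipid that the invariant receptor recognises. Stage 2 cells were the CD44+ NK1.1- fraction and stage 3 cells the CD44+ NK1.1+ fraction, so the label for stage 3 rests on NK1.1 alone. The sort makes the gene for NK1.1, Klrb1c, a check of the labels and not a finding.

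NKT cells are T lymphocytes with a nearly fixed receptor α chain, selected on CD1d-expressing thymocytes. Their innate-like character depends on PLZF, which Zbtb16 encodes. Cells with a type 2, interleukin-4 producing programme and cells with a type 17 programme lack NK1.1, while NK1.1+ cells of the thymus are mostly type 1 cells that depend on T-bet (Tbx21) and on interleukin-15, share many receptors with natural killer (NK) cells, and can stay in the thymus for long periods. A stage 2 sort therefore can hold type 2 cells, type 17 cells and cells on their way to stage 3, and in bulk RNA a smaller share of such cells cannot be told apart from less RNA per cell.

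The 13 libraries fell in 2 sets that the labels do not name. The deposited unit is FPKM, fragments counted for a gene relative to the length of its transcript and the size of the library. Over the genes that reached 1 FPKM in a library, the median level was 12.97 to 13.85 FPKM in set A (4 stage 2 and 3 stage 3 libraries) and 7.58 to 9.05 in set B (3 and 3). Set A held roughly 1.1 to 11.2 M fragments per library and set B roughly 17.8 to 28.2 M, as read from the smallest steps in the deposited values. The first principal component (61.9% of the variance) separated the sets, and the second (17.7%) separated the stages without overlap. The labels name a low-input kit (SMARTer) and TruSeq as kits used, without saying which library had which.

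Libraries NKT-2_6 and NKT-3_5, both of set B, stood apart. The summed FPKM of 14 B cell markers was 2263 in NKT-2_6 against 6.61 to 178 in the other stage 2 libraries, and 542 in NKT-3_5 against 3.27 to 16.9 in the other stage 3 libraries. The summed FPKM of 11 erythroid markers was 209.6 in NKT-2_6 (10.3 to 25.1 in the others of its stage) and 831 in NKT-3_5 (4.96 to 19.4). Both also had little Cd4, with 0.843 FPKM in NKT-2_6 and 2.42 FPKM in NKT-3_5, where the remaining libraries had 36.7 to 87.3 FPKM in stage 2 and 19.0 to 33.5 FPKM in stage 3. NKT-2_6 further had the highest sum of 4 γδ T cell markers, 217 against 35.6 to 76.6, and the highest myeloid sum, 378 against 74.4 to 144. The summed FPKM of 11 markers of double-positive thymocytes, Cd4 among them, was 42.4 to 128.8 in stage 2 and 39.8 to 60.9 in stage 3, and 70.6 to 128.8 against 39.8 to 51.6 without the 2 libraries, with 4 to 7 markers at 1 FPKM or more in each library. Of that list Themis, a gene of T cell receptor signalling in thymocytes, held lower (-2.78), while Ptcra and Rag1 reached at most 1.39 and 0.812 FPKM in any library. Of 13 stroma markers, 1 or 2 were at 1 FPKM or more in each library, and Col1a1 and Col3a1 reached at most 0.557 and 0.0267 FPKM. The part of these cell types in the stage differences was not tested.

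Because of these sets and libraries, a change is called held here when 3 conditions were met. It passed limma over all 13 libraries with set as a term (Benjamini-Hochberg adjusted p under 0.05 over 10986 tested genes). Its stage difference had the same sign and an unadjusted p under 0.05 within set A and within set B. It was called again, with the same sign, without NKT-2_6 and NKT-3_5. Differences are stage 3 minus stage 2 on the log2(FPKM + 1) scale with their standard error (SE), which understates changes of low genes. The labels do not say that libraries came from separate animals, so p-values measure the spread between these libraries, which may be technical.

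Of 10986 genes, 1348 (12.3%) were called higher in stage 3 and 2249 (20.5%) lower. The held changes numbered 723 higher (6.58% of tested genes) and 1344 lower (12.2%), and these shares are the background for each list below. A gene under 1 FPKM in every library of 1 stage was tested only through the other stage, so its direction was largely fixed. The difference was over 1 for 405 held rises and below -1 for 666 held falls. In 582 of the held rises and 1014 of the held falls, no stage 2 library overlapped a stage 3 library of the same set. The median over all tested genes was -0.06. The balance of rises and falls depended on scaling: 37.5% of the calls were rises on the deposited FPKM, 46.4% after upper-quartile scaling and 48.9% after quantile normalization. No held gene had the opposite sign under either scaling.

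**Figure D1:**
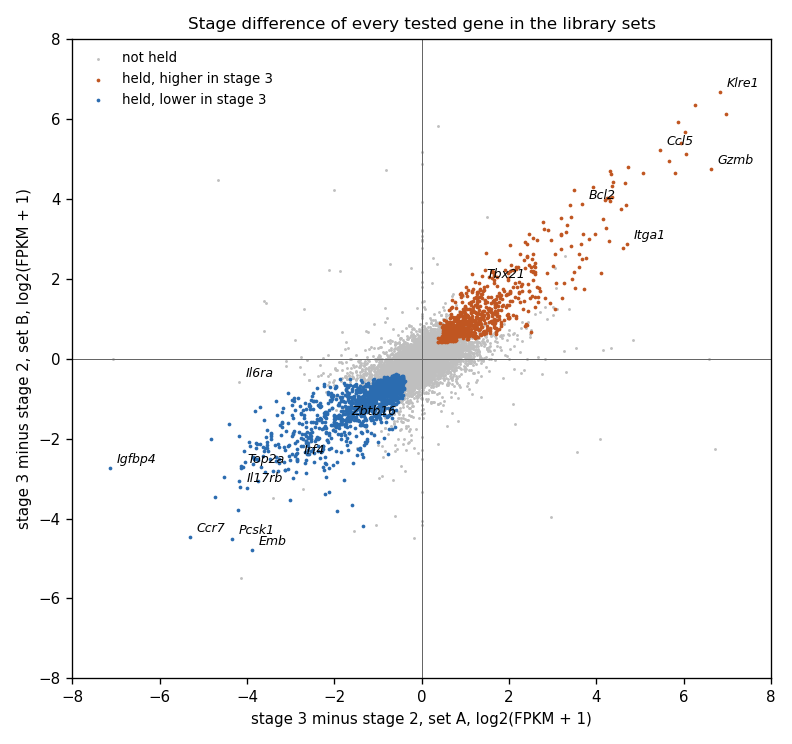
Stage difference of each tested gene in set A (x axis) and in set B (y axis), both as log2(FPKM + 1); orange and blue points are the 723 held rises and 1344 held falls, grey points all other genes. Held genes lie in the lower left and upper right by definition, and Igfbp4 and Il6ra fell by more in set A than in set B.

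The labels were checked on the sorted proteins first. Klrb1c was 19.01, 48.6, 15.8 and 18.96 FPKM in the set A libraries and 23.2, 27.1 and 15.8 FPKM in the set B libraries of stage 2, against 497, 493 and 503 FPKM and 563, 453 and 439.9 FPKM in the set A and set B libraries of stage 3. Every stage 3 library was above every stage 2 library, and stage 2 was not at 0. Cd44, encoding the adhesion receptor that both gates required, was 27.5 to 75.9 FPKM in stage 2 and 52.0 to 145 FPKM in stage 3, a difference of 1.02 ± 0.15 (adjusted p = 3.63e-05, limma).

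Genes for killing target cells rose. Of 11 tested genes of cytotoxic granules and death ligands, 10 held higher and none lower, with a median difference of 2.87 against -0.06 for all genes. The exception was Srgn, the proteoglycan of the granule core, at 683–1824 FPKM in stage 2 and 632–1283 FPKM in stage 3 (difference -0.34, adjusted p = 0.177, limma, and 0.0487 without NKT-2_6). The other 3 members of the list of 14 did not reach the level needed for a test.

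Gzmb encodes granzyme B, a protease that starts apoptosis in the target cell. It was 17.3, 12.5, 6.87 and 0.663 FPKM in the set A libraries and 25.7, 40.2 and 23.3 FPKM in the set B libraries of stage 2, against 766, 728 and 725 FPKM and 876, 889 and 680.5 FPKM in the set A and set B libraries of stage 3. All stage 3 libraries lay between 680 and 889 FPKM and the highest stage 2 library was at 40.2 FPKM, so the stages did not overlap (difference 5.75 ± 0.55, adjusted p = 1.64e-05, limma). Gzma, another granzyme gene, had 0, 5.84 and 17.6 FPKM as its lowest, median and highest stage 2 level and 204, 361 and 694 FPKM in stage 3 (difference 5.62 ± 0.39). Prf1, encoding the pore former perforin, went from 0.434–1.82 FPKM to 38.1–58.95 FPKM, with the narrowest spread of the 3 (difference 4.47 ± 0.17). Fasl, the death ligand that acts on Fas, was 2.58–13.5 FPKM in stage 2 and 99.4–204 FPKM in stage 3.

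Nkg7 encodes a membrane protein of cytotoxic granules. It was 94.4, 155, 95.7 and 109 FPKM in the set A libraries and 465, 223 and 383 FPKM in the set B libraries of stage 2, against 1321, 1099.8 and 1208 FPKM and 4799.6, 3504 and 3758 FPKM in the set A and set B libraries of stage 3. It was 10.6-fold higher in stage 3 in set A and 11.3-fold higher in set B by the ratio of means, although set B libraries of both stages lay above those of set A. The protection genes moved with the granule genes: Serpinb9, an inhibitor of granzyme B, was 8.22–14.05 FPKM in stage 2 and 27.8–46.4 FPKM in stage 3 (difference 1.80 ± 0.14).

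Genes of the general secretory lysosome did not move as a group. Of 17 tested genes of granule exocytosis and lysosomes, 2 held higher, 3 held lower and the median was -0.09. Lyst, needed for normal size of lysosome-related organelles, rose from 0.389–6.11 FPKM to 2.02–15.8 FPKM (difference 1.33 ± 0.15), with both stages several times lower in set B. Ctsd, a lysosomal protease gene, rose by 0.89, while the lysosomal membrane gene Lamp2 fell by 1.19 and the protease genes Ctss and Ctsz by 0.76 and 0.59.

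The T-box motif TCACACCT, which T-bet and its relatives bind, was looked for on both strands in the 250 bases before the start of each gene (RefSeq promoters, GRCm38.p6, so not the build of the expression files). It was present for 6 of 575 held rises with a promoter (1.04%), 8 of 1081 held falls (0.74%), 75 of 8750 tested genes (0.86%) and 350 of all 27025 genes in the table (1.3%). Nkg7 (chr7:43436888-43437137, plus strand) and Plac8 (chr5:100572206-100572455, minus strand), a gene described with the falls, are shown because they are genes with a large change in opposite directions and the same site. The capitals mark the match, here as its reverse complement AGGTGTGA, which starts 14 bases before the start site of Nkg7 and 249 bases before that of Plac8.
Nkg7: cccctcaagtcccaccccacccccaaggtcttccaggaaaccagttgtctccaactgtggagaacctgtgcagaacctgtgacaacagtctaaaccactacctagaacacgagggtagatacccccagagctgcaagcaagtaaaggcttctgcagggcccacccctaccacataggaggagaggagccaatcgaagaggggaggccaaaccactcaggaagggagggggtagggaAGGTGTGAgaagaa
Plac8: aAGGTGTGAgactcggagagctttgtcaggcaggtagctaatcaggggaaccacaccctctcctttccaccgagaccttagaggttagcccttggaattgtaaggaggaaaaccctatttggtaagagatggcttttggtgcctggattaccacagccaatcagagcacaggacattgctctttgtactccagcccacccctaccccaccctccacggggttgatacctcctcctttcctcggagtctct
A match of letters is a description of these windows only.

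Receptors shared with NK cells rose. All 22 tested genes of the list of NK receptors and their adaptors held higher, with a median difference of 3.34. Klrb1c, the gene of the sort, is among them. Some others were tested only through stage 3 and could hardly fall. Klri2, for example, had stage 2 means of 0.0768 and 0.247 FPKM in sets A and B. Klre1, encoding a lectin-like receptor of NK cells, was 0.838, 1.19, 0.5103 and 0 FPKM in the set A libraries and 3.91, 1.25 and 1.49 FPKM in the set B libraries of stage 2, against 158, 182 and 198 FPKM and 340.4, 329 and 269 FPKM in the set A and set B libraries of stage 3. The stages were far apart, and its difference of 6.77 ± 0.20 (adjusted p = 2.66e-14, limma) was the largest of the genes named by rule. Klrk1 encodes NKG2D, an activating receptor for stress ligands. It was 5.44, 5.43, 3.67 and 3.94 FPKM in the set A libraries and 10.6, 6.44 and 6.51 FPKM in the set B libraries of stage 2, against 296, 277 and 272 FPKM and 288, 292 and 230.0 FPKM in the set A and set B libraries of stage 3, without overlap.

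Klrd1 encodes CD94, the partner of the NKG2 chains, and was 8.49–66.1 FPKM in stage 2 and 475–1079 FPKM in stage 3 (difference 4.54 ± 0.24). The NKG2 chain genes Klrc1, Klrc2 and Klrc3 rose by 6.30, 5.86 and 4.76, but they are near-identical copies among which the authors' estimate could divide fragments. Among adaptors, Fcer1g, the signalling chain that several activating receptors share, rose from 8.04–41.98 FPKM to 192–665 FPKM. Tyrobp, encoding DAP12, was 0.206, 0, 0 and 0 FPKM in the set A libraries and 1.74, 16.8 and 0.312 FPKM in the set B libraries of stage 2, against 18.4, 10.4 and 10.4 FPKM and 28.1, 57.4 and 23.98 FPKM in the set A and set B libraries of stage 3. NKT-2_6 lay apart from the other stage 2 libraries and inside the stage 3 range, and without NKT-2_6 and NKT-3_5 the difference was 3.75 (adjusted p = 1.25e-09). Hcst, encoding DAP10, was already abundant in stage 2 (133–371 FPKM) and rose by 1.31.

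Some receptor genes of mature NK cells stayed low in stage 3. Ncr1, encoding NKp46, was listed at 0 in 6 of 7 stage 2 libraries and was 0.544–3.82 FPKM in stage 3. Klrg1, a receptor of terminally differentiated lymphocytes, reached at most 2.804 FPKM. Both held higher by rule, at levels far below those of Klrk1 or Klrd1 per length of transcript. Styk1, which encodes a kinase-like membrane protein of NK cells, is on none of the lists and was 0.3499, 0.266, 0.114 and 0 FPKM in the set A libraries and 0.413, 0.384 and 0.166 FPKM in the set B libraries of stage 2, against 82.03, 66.02 and 66.4 FPKM and 52.7, 86.3 and 36.7 FPKM in the set A and set B libraries of stage 3 (difference 5.69 ± 0.19). The highest stage 2 library was at 0.413 FPKM and the lowest stage 3 library at 36.7 FPKM.

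The Ly49 genes encode inhibitory and activating receptors for MHC class I. Of 11 tested members of the list of Ly49 genes, 9 held higher and none lower (median 3.83). Tested Ly49 genes outside the list were mixed. Klra14, Klra18 and Klra21 held higher (3.35, 1.67 and 4.30), while Klra12, Klra15 and Klra19 did not hold (1.44, 0.86 and 0.10). Klra9 had the highest stage 3 levels, 729, 489 and 516 FPKM in set A and 882, 826 and 551 FPKM in set B, against 4.73–22.2 FPKM in stage 2. Klra5 went from 0–8.94 FPKM to 237–454 FPKM, and Klra7 from 3.23–7.903 FPKM to 72.7–211 FPKM. The 2 listed members that did not hold varied within stage 3. Klra13-ps ranged over 0.0284–136 FPKM, with the top value in NKT-3_5, and Klra22 ranged from near 0 in NKT-3_1 to 9.83 FPKM. Without NKT-3_1 the difference of Klra22 was 1.61 and passed (adjusted p = 0.00185, limma). The Ly49 genes are near-identical, and fragments could be divided among them, so single members are uncertain.

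Most of these genes are neighbours. The listed receptor genes of the NK gene complex span 1.78 Mb of chromosome 6 (mm9, 128559245 to 130336892), in which 38 genes were tested. Of these, 28 held higher and none was called lower. Among the 15 tested genes of the interval outside the NK receptor and Ly49 lists, 7 held higher and none held lower. These 7 were the Ly49 genes Klra14, Klra18 and Klra21, with Gm156, Clec2d, 2310001H17Rik and Gabarapl1. Klra21 overlaps the listed Klra8, so the unlisted Ly49 genes are no separate evidence on neighbours of other families. Clec2d, encoding the ligand of an NK1.1 relative, rose from a mean of 44.4 to 137 FPKM in set A and from 2.67 to 5.15 FPKM in set B. Not every gene of the interval changed: Clec2i differed by 0.12 (adjusted p = 0.742, limma), with means of 18.9 and 25.3 FPKM in set A and 16.8 and 13.1 FPKM in set B.

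**Figure D2:**
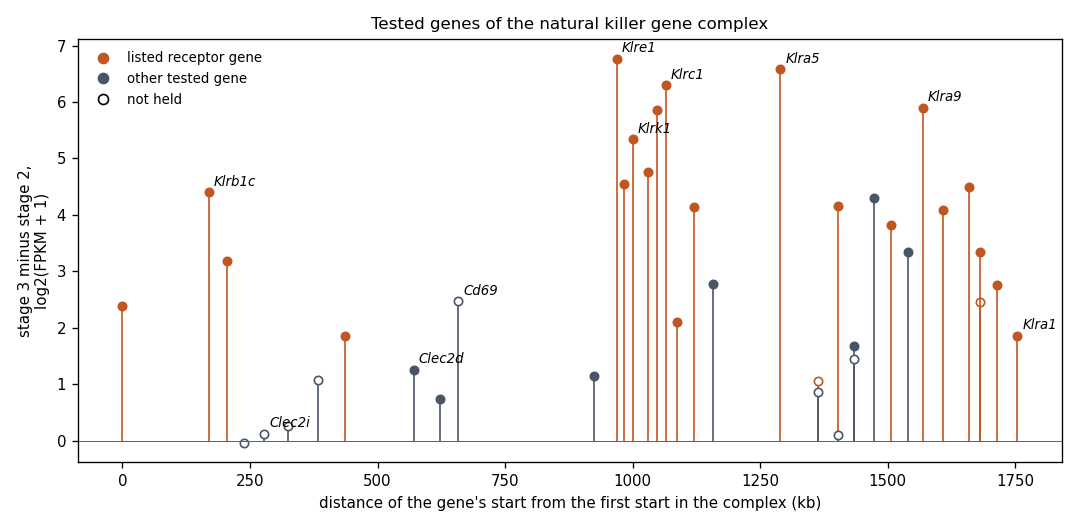
Stage difference in log2(FPKM + 1) of the 38 tested genes of the NK gene complex, by distance in kb from the first gene start; filled points held, and colour marks the listed receptor genes. Of the 38 genes, 28 held higher, and Klre1 stands highest.

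Secreted effectors rose in a selective way. Of 16 tested chemokine and effector cytokine genes, 6 held higher and 1 lower, and the median was 0.35. Ccl5, a chemokine stored by cytotoxic lymphocytes, was 10.7, 10.3, 12.2 and 9.83 FPKM in the set A libraries and 65.97, 59.2 and 48.95 FPKM in the set B libraries of stage 2, against 493, 479.7 and 573 FPKM and 2168, 2651 and 1815 FPKM in the set A and set B libraries of stage 3. It was 47.9-fold higher in stage 3 in set A and 38.1-fold higher in set B (difference 5.35 ± 0.13, adjusted p = 2.10e-15, limma). Xcl1, a chemokine that attracts cross-presenting dendritic cells, was 14.6–62.9 FPKM in stage 2 and 703–1199 FPKM in stage 3, again with no overlap.

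Ifng, encoding interferon-γ, was 37.4, 5.05, 1.804 and 8.01 FPKM in the set A libraries and 47.8, 0.479 and 13.4 FPKM in the set B libraries of stage 2, against 117, 157 and 197 FPKM and 186, 53.3 and 149 FPKM in the set A and set B libraries of stage 3. Stage 2 libraries spread from 0.479 to 47.8 FPKM, NKT-2_5 at 47.8 FPKM came close to NKT-3_5 at 53.3 FPKM, and the difference of 3.85 had an SE of 0.84. Ccl4, another inflammatory chemokine gene, was 0–3.196 FPKM and 7.94–50.98 FPKM. The fall was Il21, which encodes a helper cytokine, at 0.373–3.75 FPKM in stage 2 and listed at 0 in 4 of 6 stage 3 libraries. Ltb, encoding lymphotoxin β, rose by 1.31 but lay far lower in set B (3.38, 6.22 and 0.9297 FPKM in stage 2) than in set A (186, 226, 141 and 223 FPKM).

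Among regulators and cytokine receptors of the type 1 programme, 13 of 19 tested members held higher and 2 lower (median 1.21). Tbx21, encoding T-bet, was 26.8, 42.4, 38.7 and 56.1 FPKM in the set A libraries and 5.38, 1.67 and 3.82 FPKM in the set B libraries of stage 2, against 118, 83.99 and 103 FPKM and 16.6, 15.1 and 13.7 FPKM in the set A and set B libraries of stage 3. Within each set all stage 3 libraries were above all stage 2 libraries, but stage 2 of set A exceeded stage 3 of set B, and the difference was 1.59 ± 0.20 (adjusted p = 8.90e-06, limma). Its relative Eomes, which works beside T-bet in NK cells, was at most 0.488 FPKM in any library and was not tested. Id2, which blocks E proteins, was 360.2, 424, 400.4 and 333 FPKM and 1752, 1957 and 1654 FPKM in stage 2 and 781, 938 and 777 FPKM and 4474, 3918 and 3486 FPKM in stage 3 of sets A and B (difference 1.14 ± 0.15).

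Id3, the other E-protein inhibitor, moved the opposite way. It was 99.5, 113, 121 and 172 FPKM in the set A libraries and 235, 140.4 and 187 FPKM in the set B libraries of stage 2, against 8.91, 11.4 and 8.01 FPKM and 31, 20.2 and 24.6 FPKM in the set A and set B libraries of stage 3. No stage 3 library reached the lowest stage 2 library, and the difference was -3.24 ± 0.18 (adjusted p = 2.60e-10, limma). Hopx, a homeodomain-only cofactor of type 1 T cells, rose by 2.99, and Runx3, a regulator of cytotoxic lymphocytes, by 0.99.

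Some receptor chains for interleukin-12, interleukin-10, interferon-γ and interleukin-15 rose, and some of their partner chains did not. Il12rb2, the inducible chain of the interleukin-12 receptor, was 2.67, 7.997, 2.51 and 1.46 FPKM in the set A libraries and 2.36, 1.41 and 2.31 FPKM in the set B libraries of stage 2, against 70.6, 74.3 and 77.1 FPKM and 48.4, 41.7 and 48.7 FPKM in the set A and set B libraries of stage 3. Its partner Il12rb1 fell by 0.76, from 35.1, 30.4, 27.9 and 46.05 FPKM to 15.3, 24.4 and 17.4 FPKM in set A. Stat4, which carries the interleukin-12 signal, went from 1.79–11.3 FPKM to 39.2–68.5 FPKM. Il10ra rose by 3.61 and Ifngr1 by 3.15.

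Il2rb, the chain through which interleukin-15 signals, was 195, 227, 175 and 188 FPKM in the set A libraries and 121, 66.3 and 105 FPKM in the set B libraries of stage 2, against 740.1, 864 and 842 FPKM and 651, 364 and 494 FPKM in the set A and set B libraries of stage 3. The stages did not overlap (difference 2.20 ± 0.17). Il2rg, the common γ chain it pairs with, was 354–1335 FPKM in stage 2 and 359–1287 FPKM in stage 3, with a difference of 0.10 ± 0.14 (adjusted p = 0.605). Il15ra, another interleukin-15 receptor chain, was not called (difference 0.57, adjusted p = 0.201, limma). The interleukin-18 receptor split as well: Il18rap rose by 1.28 and Il18r1 fell by 0.66.

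The list of SOCS and STAT5 response genes had 5 of 15 tested members held higher and none lower, with a median of 0.34. It also holds JAK and STAT genes of the pathway itself, and the kinase gene Jak1 (0.58) was among the 5. Bcl2, the anti-apoptotic gene that is on this list and on the survival list, was 3.68, 8.75, 3.91 and 4.94 FPKM in the set A libraries and 0.959, 1.46 and 0.8599 FPKM in the set B libraries of stage 2, against 77.4, 67.9 and 81.8 FPKM and 27.6, 32.5 and 28.98 FPKM in the set A and set B libraries of stage 3. It was 14.2-fold higher in stage 3 in set A and 27.1-fold higher in set B, and its difference of 3.76 ± 0.17 was the largest of the BCL2 family. Socs2 rose from 0.387–2.804 FPKM to 7.15–18.8 FPKM and Cish from 4.25–9.49 FPKM to 18.7–40.9 FPKM, both feedback inhibitors of cytokine receptors.

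Of 20 tested survival genes 4 held higher and none lower, with a median of -0.03. Bcl2l11, encoding the pro-apoptotic BIM, rose together with Bcl2, from 1.99–6.74 FPKM to 5.42–27.1 FPKM (difference 1.58 ± 0.17). Bcl2l1, encoding the protective BCL-XL, rose by 0.83 and Bid, a pro-apoptotic gene, by 0.66. Mcl1, another survival gene, differed by 0.36 (adjusted p = 0.132, limma, and 0.0253 without NKT-2_6). All 8 GIMAP genes, a family of lymphocyte GTPases that sit within 0.124 Mb on chromosome 6, held higher, with a median of 1.35. Gimap3 had the largest difference, from 33.8–86.3 FPKM to 331–421 FPKM, and Gimap5, needed for lymphocyte survival, rose by 1.81.

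**Figure D3:**
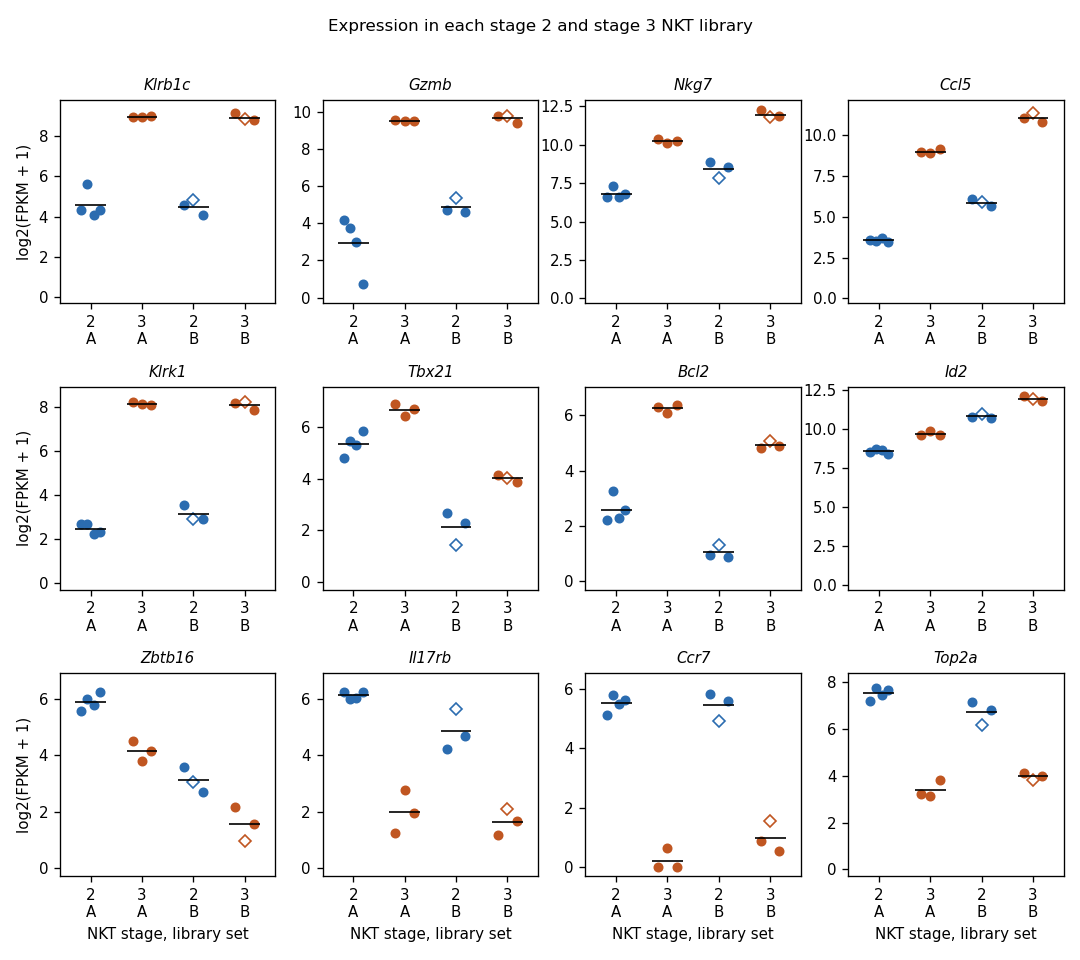
log2(FPKM + 1) of 12 genes in each library, by stage (2 blue, 3 orange) and library set (A, B); bars are group means, and open diamonds are NKT-2_6 and NKT-3_5. Within each set the stages do not overlap for any of the 12 genes, while the level of Tbx21, Zbtb16, Ccl5 and Id2 also differs between sets. Klrb1c is the gene of the sort, and lack of overlap was among the rules by which genes such as Gzmb were named.

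Genes of the type 2 list mostly fell. The list also holds genes of NKT cells in general, such as Zbtb16 and Egr2, so it does not measure the type 2 programme alone. Of 23 tested genes of the list 13 held lower and 2 higher, with a median of -1.37. Zbtb16, encoding PLZF, was 47.1, 64.1, 54.7 and 75.95 FPKM in the set A libraries and 10.96, 7.28 and 5.51 FPKM in the set B libraries of stage 2, against 21.8, 12.8 and 17.1 FPKM and 3.52, 0.956 and 1.94 FPKM in the set A and set B libraries of stage 3. It was 3.51-fold lower in stage 3 in set A and 3.7-fold lower in set B, and no library crossed within a set (difference -1.66 ± 0.20, adjusted p = 4.54e-06, limma). The gene was still present at 0.956–21.8 FPKM in stage 3.

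Il17rb, encoding the receptor for interleukin-25 that marks thymic type 2 NKT cells, was 75.6, 63.2, 64.3 and 74.4 FPKM in the set A libraries and 17.6, 49.2 and 24.5 FPKM in the set B libraries of stage 2, against 1.35, 5.72 and 2.83 FPKM and 1.26, 3.26 and 2.17 FPKM in the set A and set B libraries of stage 3. The lowest stage 2 library (NKT-2_5) was above the highest stage 3 library (NKT-3_2) (difference -3.71 ± 0.28). Ccr4, a chemokine receptor of type 2 lymphocytes, went from 13.3–108 FPKM to 1.13–5.81 FPKM. Plac8, a small cysteine-rich protein gene, went from 131–589 FPKM to 20.2–63.4 FPKM, and its lowest stage 2 library was NKT-2_6.

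The cytokine genes themselves fell unequally. Il4 was 57.3, 87.97, 85.2 and 105 FPKM in the set A libraries and 189, 58.01 and 156 FPKM in the set B libraries of stage 2, against 38, 26.2 and 38.3 FPKM and 63.6, 47.2 and 45.8 FPKM in the set A and set B libraries of stage 3. The fall was 1.23, stage 3 kept 26.2–63.6 FPKM, and NKT-2_6 at 58.01 FPKM overlapped stage 3 of set B. Il13 fell by 2.65, from 25.4, 29.5, 28.5 and 52.9 FPKM to 1.67, 1.37 and 2.25 FPKM in set A, but in set B stage 2 was already low at 5.09, 0.184 and 3.34 FPKM. Irf4, a factor downstream of the T cell receptor, fell from 4.64–17.5 FPKM to 0.136–1.304 FPKM, and Icos, a costimulatory receptor gene, from 342–628 FPKM to 78.3–113 FPKM, both without overlap.

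Gata3, the classic type 2 regulator, was 57.7, 51.6, 42.8 and 68.8 FPKM in the set A libraries and 83, 61.1 and 53.9 FPKM in the set B libraries of stage 2, against 46.3, 42.98 and 58.3 FPKM and 58.7, 47.97 and 57.3 FPKM in the set A and set B libraries of stage 3. The ranges overlapped and the difference of -0.20 ± 0.14 did not pass the test (adjusted p = 0.308, limma). Egr2, needed for NKT development, was called lower (-1.15) but did not hold, since the fall was -1.64 in set A and -0.58 in set B. Tcf7, encoding TCF-1, fell by 1.90 and Lef1, its relative, by 1.36. The 2 members that rose were Il4ra, from 1.48–3.11 FPKM to 9.02–26.3 FPKM, and Ccr8, from 32.1–103 FPKM to 114–154 FPKM, receptors for interleukin-4 and for a chemokine.

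Type 17 genes were low in stage 3 and very uneven in stage 2. Of 21 tested members 7 held lower and none higher, with 11 called lower and 1 higher without the further conditions (median -1.51); without NKT-2_6, 2 were called higher. Il23r, the receptor chain for interleukin-23, was 9.18, 3.32, 1.43 and 2.81 FPKM in the set A libraries and 18.7, 59.05 and 10.6 FPKM in the set B libraries of stage 2, against 0.365, 1.05 and 0.985 FPKM and 0.0209, 1.197 and 0.0297 FPKM in the set A and set B libraries of stage 3. NKT-2_6 had the highest level, ahead of NKT-2_5, and the difference of -2.67 became -2.28 (adjusted p = 0.00574, limma) without NKT-2_6 and NKT-3_5. Il1r1, encoding an interleukin-1 receptor chain, was 11.95, 7.26, 3.35 and 5.23 FPKM in the set A libraries and 12.3, 59.6 and 8.87 FPKM in the set B libraries of stage 2, against 1.84, 1.13 and 1.32 FPKM and 0.0315, 2.02 and 0.254 FPKM in the set A and set B libraries of stage 3, with the same library on top.

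Serpinb1a, a protease inhibitor gene of type 17 cells, was 18.8, 1.97, 1.9 and 0.937 FPKM in the set A libraries and 55.04, 304 and 43.1 FPKM in the set B libraries of stage 2, against 0.487, 3.795 and 0.219 FPKM and 2.35, 10.2 and 2.6 FPKM in the set A and set B libraries of stage 3. It was called (adjusted p = 0.0434, limma; 0.0629 without NKT-2_6) but did not hold, and neither did Blk (-1.56 in set A and -4.31 in set B), a kinase gene that B cells also express. Il17a itself was 0.748–14.9 FPKM in stage 2 and 0–0.863 FPKM in stage 3. Rora, a nuclear receptor gene of type 17 cells, had even values in stage 2 (6.77–22.3 FPKM) and fell by 1.51 to 0.334–6.95 FPKM. The γδ T cell markers moved with the type 17 genes: their summed FPKM was 35.6 to 76.6 in the stage 2 libraries other than NKT-2_6 and 8.40 to 26.2 in stage 3, without overlap. Of these 4 markers, Sox13 (-1.40) and Cd163l1 (-1.10) held lower, and the other 2, Blk among them, are also on the type 17 list. The part that γδ T cell, B cell and myeloid transcripts have in the type 17 values was not tested.

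Genes that guide lymphocytes through and out of the thymus changed in both directions, with 4 of 19 tested members held higher and 7 lower (median 0.29). Ccr7, a receptor for homing to the medulla and lymph nodes, was 34.02, 54.8, 44.3 and 48.97 FPKM in the set A libraries and 56.4, 29.6 and 47.5 FPKM in the set B libraries of stage 2, against 0, 0.58 and 0 FPKM and 0.861, 1.92 and 0.459 FPKM in the set A and set B libraries of stage 3. The highest stage 3 library was at 1.92 FPKM, and 2 of the 6 listed the gene at 0 (difference -4.91 ± 0.22, adjusted p = 1.61e-11, limma). Ccr9, a receptor for a thymic and gut chemokine, fell from 9.16–75.1 FPKM to 0.6602–3.72 FPKM with the highest stage 3 value in NKT-3_5.

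S1pr1, the receptor for egress from the thymus, was 18.4–39.3 FPKM in stage 2 and 3.09–9.04 FPKM in stage 3, a fall of 2.22 with no overlap. Klf2, a transcription factor that activates S1pr1 in T cells, moved the opposite way. It was 28.9, 18.3, 19.97 and 21.9 FPKM in the set A libraries and 7.35, 3.41 and 2.92 FPKM in the set B libraries of stage 2, against 31.1, 117 and 118 FPKM and 12.6, 12.7 and 8.83 FPKM in the set A and set B libraries of stage 3. The stages did not overlap within a set, though NKT-3_1 lay close to its set's stage 2 libraries (difference 1.499 ± 0.30). Cxcr3, a type 1 chemokine receptor gene, rose by 1.37, and Rgs1, which dampens chemokine receptor signals, went from 18.96–306 FPKM to 289.6–1070.2 FPKM with an overlap in set B. Cxcr6, a receptor typical of NKT cells, differed by 0.37 (adjusted p = 0.0829, limma, and 0.0329 without NKT-2_6).

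Adhesion genes had 9 of 19 tested members held higher and 2 lower (median 0.75). Itga1, the collagen-binding α1 integrin chain of tissue-resident lymphocytes, was 0.205, 0.146, 0.188 and 0 FPKM in the set A libraries and 0, 0.0575 and 0 FPKM in the set B libraries of stage 2, against 32.4, 30.1 and 23.1 FPKM and 8.06, 6.18 and 5.48 FPKM in the set A and set B libraries of stage 3. It was near 0 throughout stage 2, and its rise was 4.69 in set A and 2.88 in set B, a difference between the sets that itself passed the test (adjusted p = 0.0152 for the interaction, limma). Its partner Itgb1 rose by 1.35 and Itgae, encoding CD103, by 0.80. The falls were Itgb3, from 44.5, 95.3, 58.6 and 76.8 FPKM to 10.2, 15.2 and 14.4 FPKM in set A, and Emb, which encodes the membrane protein embigin, from 34.2–109.8 FPKM to 0.364–3.04 FPKM.

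Proliferation genes fell almost as a block. Of 35 tested cell cycle genes 34 held lower and none higher, and the median was -2.61. Top2a, the topoisomerase of dividing cells, was 148, 216, 175 and 204 FPKM in the set A libraries and 140.3, 70.4 and 113 FPKM in the set B libraries of stage 2, against 8.32, 7.79 and 13.01 FPKM and 16.5, 13.3 and 14.8 FPKM in the set A and set B libraries of stage 3. The lowest stage 2 library (NKT-2_6) was well above the highest stage 3 library (NKT-3_4) (difference -3.48 ± 0.25, adjusted p = 2.48e-08, limma). Ccnb1, encoding the mitotic cyclin B1, was 38.4, 31.2, 51.4 and 27.8 FPKM in the set A libraries and 88.3, 58.6 and 77.9 FPKM in the set B libraries of stage 2, against 0, 0.486 and 1.78 FPKM and 8.26, 12.2 and 6.44 FPKM in the set A and set B libraries of stage 3, without overlap. Mki67, the proliferation marker Ki-67, fell from 8.35–68.7 FPKM to 2.53–6.15 FPKM, where the lowest stage 2 library (NKT-2_7) was still above the highest stage 3 library.

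The size of the fall varied within the list. The mitotic genes Cdk1, Plk1 and Ccnb2 had differences of -3.18, -3.28 and -3.37, and Rrm2, encoding a subunit of the enzyme that makes deoxynucleotides, had -3.21. Cenpf, a kinetochore protein gene, fell by 1.91, Pcna, the DNA clamp, by 0.98 and Mcm4, a helicase subunit gene, by 0.90. Pcna remained abundant in stage 3, at 95.8–217 FPKM. Cdt1, a replication licensing factor gene, was the only member that did not hold, with a difference of -0.06 (adjusted p = 0.856). Of 12 tested replication-dependent histone genes 5 held lower and none higher (median -1.13); these genes are near-identical copies. Ube2c, a mitotic ubiquitin-conjugating enzyme gene, fell by -4.10 in set A and -2.71 in set B as signed differences, which differed by the interaction (adjusted p = 0.0422).

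Cyclin D, CDK and cycle inhibitor genes did not move as a group: of 13 tested, 3 held higher and 2 lower (median 0.00). The rises were the antiproliferative genes Btg1 (1.19) and Btg2 (1.46) and the cyclin gene Ccnd3 (1.23), and the falls were Cdk4 and Rb1, by 0.75 and 0.90. Cdkn1b, encoding the inhibitor p27, was called higher (0.62) but did not hold. The inhibitor genes Cdkn2a, Cdkn2c and Cdkn2d were called lower (-1.34, -1.14 and -0.40), also without holding, and Cdkn1a differed by 0.0016.

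Of 17 tested glycolysis genes 7 held lower and 1 higher (median -0.59). Ldha, encoding a lactate dehydrogenase chain, was 667, 899, 792 and 922 FPKM in the set A libraries and 1167, 541 and 788 FPKM in the set B libraries of stage 2, against 401, 334 and 392 FPKM and 559.9, 278 and 338 FPKM in the set A and set B libraries of stage 3. The fall was 1.10, with no overlap in set A, while in set B NKT-2_6 lay below NKT-3_4. Pgk1 and Pkm2, kinases of the lower pathway, fell by 1.23 and 1.07. The gene that rose was Slc2a3, a glucose transporter, from 7.04–16.4 FPKM to 23.7–33.1 FPKM.

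Respiratory chain genes had 6 of 27 tested members held lower and none higher (median -0.44), with no fall beyond the 0.71 of Cox7a2. Ribosome biogenesis had 8 of 20 held lower and none higher (median -0.47), Wdr12 and Nop58 falling by 0.86 and 0.78. Cholesterol synthesis had 2 of 22 held lower and 1 higher (median 0.00), near the background of 12.2% held lower.

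Genes of the CD3 complex and of T cell receptor signalling did not move as a group, and the list holds no receptor α or β chain gene. Of 24 tested members 3 held higher and 1 lower (median 0.04). Cd3d, a CD3 chain, was 313–797 FPKM in stage 2 and 431–878 FPKM in stage 3 (difference 0.15 ± 0.18, adjusted p = 0.559, limma). The other chain genes of the complex were called without holding, Cd3e and Cd3g higher (0.53 and 0.57) and Cd247 lower (-0.58). The 3 that held higher were Ubash3a, from 2.46–4.42 FPKM to 18.3–31.4 FPKM, and the phosphatase genes Ptpn22 (1.30) and Ptpn6 (0.91). Sh2d1a, encoding the adaptor SAP of SLAM receptors, fell by 0.75.

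Costimulatory and inhibitory receptors were split, with 4 of 18 tested held higher and 4 lower (median -0.25). Pdcd1, encoding PD-1, was 106, 151, 131 and 141 FPKM in the set A libraries and 231, 179 and 262 FPKM in the set B libraries of stage 2, against 19.8, 20.8 and 21.7 FPKM and 62.3, 28.7 and 51 FPKM in the set A and set B libraries of stage 3. It fell by 2.45 with no overlap, while the inhibitory receptor gene Tigit rose from 0–1.301 FPKM to 6.598–23.5 FPKM. Cd200, an inhibitory ligand, and Tnfsf11, encoding RANKL, a signal to thymic epithelium, fell by 2.96 and 2.77. Cd7, an NK and T cell surface protein gene, rose by 2.53, and Tnfrsf18, encoding GITR, by 1.49.

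Immediate early genes were uneven between libraries of 1 stage. Of 22 tested members 3 held higher and none lower (median 0.91). Fos was 236, 27.2, 15.1 and 63.3 FPKM in the set A libraries and 204, 42.6 and 44.8 FPKM in the set B libraries of stage 2, against 189, 545 and 515 FPKM and 489, 15.9 and 388 FPKM in the set A and set B libraries of stage 3. Both stages spread widely, NKT-3_5 was the lowest stage 3 library, and the difference of 1.997 ± 0.97 did not pass (adjusted p = 0.145, limma). Without NKT-3_5 the difference was 2.74 (adjusted p = 0.0155), and 12 members of the list were called higher in place of 6. Cd69, an activation marker that also holds cells in tissue, followed the same order within stage 3 set B (216, 62.1 and 156 FPKM) and was called (2.47) without holding. Dusp2, a phosphatase gene, rose by 1.29, and Jund and Ier5 by 1.04 and 1.11.

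Interferon-response genes did not move as 1 group, with 9 of 32 tested held higher and 3 lower (median 0.29). The largest rises were the transmembrane genes Ifitm2, Ifitm3 and Ifitm1 (4.22, 3.14 and 3.08) and Ly6c2, the surface antigen gene, which was 86.9–163 FPKM in stage 2 and 754–1409 FPKM in stage 3. Isg15, a classic interferon-induced gene, was 53.3–107 FPKM and 53.8–80.5 FPKM (adjusted p = 0.127, limma, and 0.0339 without NKT-2_6), and Oasl2 and Iigp1 fell by 1.07 and 1.24. The Ifitm genes are close copies and may share fragments.

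Of 18 tested galectin, S100 and annexin genes 3 held higher and 2 lower (median -0.07). Anxa1, encoding annexin A1, rose from 1.35–16.99 FPKM to 21.7–76.4 FPKM, with NKT-2_6 the highest of stage 2. Ahnak, a large scaffold protein gene, rose by 1.75. Lgals1 and Lgals3, encoding galectins 1 and 3, fell by 0.93 and 1.17.

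Among genes outside the lists, Tsc22d3, encoding the glucocorticoid-induced leucine zipper protein GILZ, was 4.36, 0.477, 0 and 0.454 FPKM in the set A libraries and 8.24, 20.4 and 4.88 FPKM in the set B libraries of stage 2, against 88.7, 107 and 110.2 FPKM and 327, 216 and 259 FPKM in the set A and set B libraries of stage 3. The stages did not overlap, and NKT-2_6 was the highest stage 2 library (difference 5.26 ± 0.42). Pcsk1, which encodes a proprotein convertase, was 37.97, 27.4, 47.6 and 25.7 FPKM in the set A libraries and 31.6, 29.3 and 32.8 FPKM in the set B libraries of stage 2, against 0.361, 1.78 and 0.324 FPKM and 0.557, 0.783 and 0 FPKM in the set A and set B libraries of stage 3. It was at most 1.78 FPKM in stage 3 (difference -4.42 ± 0.21). Lgmn, encoding the lysosomal protease legumain, fell from 20.9–59.8 FPKM to 0–1.93 FPKM. Igfbp4, an insulin-like growth factor binding protein gene, was 103, 179, 137 and 195 FPKM in the set A libraries and 7.77, 5.83 and 4.93 FPKM in the set B libraries of stage 2, against 0, 0.184 and 0 FPKM and 0.0256, 0.198 and 0 FPKM in the set A and set B libraries of stage 3. It fell by 7.15 in set A and 2.73 in set B, and the difference between the sets passed the test (adjusted p = 4.69e-06, interaction).

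**Figure D4:**
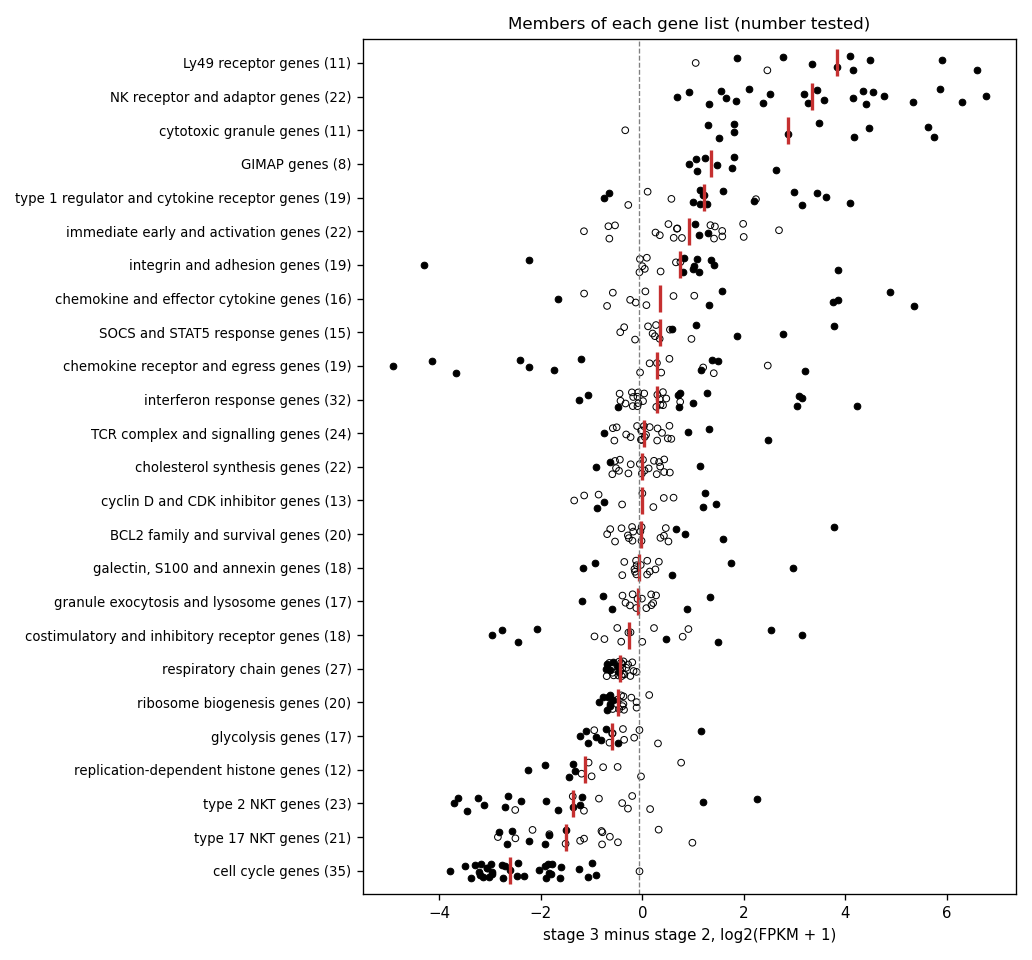
Stage difference in log2(FPKM + 1) of each tested member of the 25 gene lists; filled points held, open points did not, red bars are list medians, and the dashed line is the median of all genes (-0.06). The Ly49, NK receptor and cytotoxic lists stand highest, and cell cycle stands lowest at -2.61.

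Across all genes, 40 had a stage difference that itself differed between the sets by the interaction test, of which 21 were held and 4 had opposite signs. Il6ra, the interleukin-6 receptor chain, was one of the 40. It was 23.02, 24.7, 23.97 and 27.6 FPKM in stage 2 of set A but only 2.65, 1.56 and 1.63 FPKM in set B, and fell by 4.18 and 0.59 (adjusted p = 4.84e-04, limma). The count depended on the scale of low values and came to 3 with a pseudocount of 0.1 FPKM.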

How the data were processed

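RNA of sorted thymic NKT cells was measured by RNA-seq in 26 libraries, of which the 7 NKT-2 and 6 NKT-3 libraries entered the comparison. The deposited values are FPKM per gene, made by the authors from reads aligned to mm9, with TopHat2 2.0.6 and Cufflinks 2.1.1 per the submitters' processing notes. Deposited FPKM of rows with the same symbol were summed; of 23248 symbols, 51 were absent from some file and 13 had an estimate marked as failed, which left 23184. Only the approximate depth given with the samples could be read from the values, so no count model was used. An exact 0 is the deposited value, printed as 0 FPKM or as listed at 0. It was not marked as failed, since such symbols were removed, but it need not mean absent RNA.

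The tested genes reached 1 FPKM in 3 or more of the 13 libraries; the fit was made on log2(FPKM + 1) in limma 3.58.1 (R 4.3.3; trend and robust empirical Bayes, 2-sided), with terms for stage and library set. Within-set differences came from the same libraries with 1 stage term per set. The sets of the 13 libraries were taken from earlier work on these data, and the labels do not name them. A limit of 11 on the median FPKM of detected genes divides the libraries in the same way. On simulated data with changed genes, 84% of 2-fold and 99% of 4-fold changes were called, 77% and 98% held, and 6 unchanged genes were called and 4 held. The changes were planted only in the more abundant genes, with independent normal noise. These rates therefore do not cover low genes or libraries such as NKT-2_6 and NKT-3_5.

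The members, the gene lists, the sets and the tests were chosen with earlier results of these data known. Named genes are the sort genes and 8 regulators, up to 5 held members of each list by size, and the 12 largest rises and falls among held genes with a mean of 10 FPKM or more and no overlap within either set. The choice of other members to print was made with their values in view. A few genes are not reported here. Alternatives were pseudocount, filter, scaling, weights, a replicate block, a 1.5-fold threshold, other definitions of a held gene and leaving out libraries; the deposited row count as a term, the held count without each library and alternatives for the interaction were added after seeing the data. The other 13 libraries were not used, except the 5 stage 1 libraries. These entered 1 alternative fit and the removal of symbols that were absent or marked as failed. Gene intervals are mm9, 1-based.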

Additional observations from a re-analysis of the deposited data

Results flagged for a closer look

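Single libraries lying far from the rest of their stage were sought in 329 groups of 7 stage 2 or 6 stage 3 values on the log2(FPKM + 1) scale, where chance alone marks about 1 in 20. Most of those found were NKT-2_6 or NKT-3_5. NKT-2_6 was apart with 59.6 FPKM of Il1r1 (12.3 in the next library), 109.8 FPKM of Emb (47.9), 2.80 FPKM of Socs2 (1.12) and 16.8 FPKM of Tyrobp (1.74), and on the low side with 0.373 FPKM of Il21 (2.22), 39.5 FPKM of Ccnb2 (66.8), 152 FPKM of Cdk4 (179.8), 17.4 FPKM of Lef1 (40.4) and 0.843 FPKM of Cd4 (36.7). Its summed markers of erythroid cells (209.6 FPKM), of myeloid and dendritic cells (378 FPKM) and of γδ T cells (217 FPKM) were also apart. NKT-3_5 was apart with 3.72 FPKM of Ccr9 (1.09), 542 FPKM of summed B cell markers (16.9) and 831 FPKM of summed erythroid markers (19.4), and on the low side with 289.6 FPKM of Rgs1 (658), 2.42 FPKM of Cd4 (19.0) and 15.9 FPKM of Fos (189).

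Other libraries stood apart for 1 or a few genes. These were NKT-3_6 for Klrk1 (230.0 FPKM, 272 in the next), NKT-2_2 for Il12rb2 (7.997 FPKM, 2.67), NKT-2_7 for Ptpn22 (74.4 FPKM, 53.5), NKT-3_4 for Wdr12 (17.5 FPKM, 10.6), NKT-2_3 for Serpinb9 (14.0 FPKM, 10.3) and NKT-2_5 for Cdk1 (48.1 FPKM, 37.3). Near the bottom of the scale, the same was seen for Il21 in NKT-3_4 (0.133 FPKM), Ncr1 in NKT-2_5 (0.0772 FPKM), Col1a1 in NKT-3_1 (0.557 FPKM) and Rag1 in NKT-3_3 (0.812 FPKM).

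The stage difference itself differed between the library sets, by the interaction in limma, for 4 genes of the report. Set B minus set A was -1.81 for Itga1, 1.38 for Ube2c, 3.59 for Il6ra and 4.42 for Igfbp4 on the log2 scale. The cause was not tested.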

How the results depend on the processing

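The 3597 calls fell to 1174 (359 higher, 815 lower) with no term for library set, to 928 (317 and 611) within set B alone and to 868 (321 and 547) when tested against a 1.5-fold change. The 2067 held genes became 812 against a 1.5-fold change, 1195 when each set had to pass an adjusted p of 0.05, and 3292 when only the sign had to match in each set. Under the other settings these counts stayed within 1.5 times of the reported ones, except the rises under the replicate block. Leaving out 1 library gave 2990 to 3879 calls, 1075 to 1584 rises, 1915 to 2335 falls and 1763 to 2212 held genes.

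Replicate numbers do not pair the stages: the deviations of same-numbered libraries within a set correlated between -0.35 and 0.00. In set B, NKT-2_5 with NKT-3_4, NKT-2_6 with NKT-3_5 and NKT-2_7 with NKT-3_6 correlated at 0.392, 0.413 and 0.201, and the other 6 set B pairs at -0.346 to -0.037. The labels do not pair these libraries, so this is a hint from the data, and no fit uses it. With the replicate block there were 2459 calls, 735 of them rises, and 1467 held genes.

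The interaction count of 40 became 3 with a pseudocount of 0.1, 26 with a filter of 5 FPKM, 71 after quantile normalization and 23 without NKT-2_6 and NKT-3_5; leaving out 1 library gave 17 (without NKT-3_1) to 42, with 25 without NKT-2_2, 23 without NKT-2_6, 22 without NKT-2_7, 26 without NKT-3_2, 21 without NKT-3_3, 18 without NKT-3_4 and 20 without NKT-3_6. The 131 held genes named in the report, cell type markers left out, were all called without any 1 library, and 83 of them under every setting in which they were tested. None of the 131 changed sign. Holding already required the same sign in each set and a call without NKT-2_6 and NKT-3_5. Many of these genes were also named for the size of their change, so part of this stability follows from the choice. Cdt1, which was not called, changed sign to 0.27 within set B, 0.0232 after upper-quartile scaling, 0.0033 without NKT-3_3 and 0.0508 without NKT-3_6, within -0.18 to 0.0508 over all single libraries left out. Low depth in set A and the missing counts limit what can be said of genes under 1 FPKM.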
